A study of Arabidopsis thaliana with 18 samples.

Results

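AMY1 (AT4G25000, an alpha-amylase) and SFP1 (AT5G27350, a sugar transporter of the ERD6-like group) are 2 genes of starch and sugar use whose signal was lower in uninduced SND1 cells than in wild-type (wt) cells. They were chosen for that difference, from the SND1 and wt arrays at 0 h, among the 13356 genes that the array annotation names singly. Each gene had 1 probe set, and both passed the filter on dim signals. The cells were suspension-cultured Arabidopsis thaliana cells profiled on Affymetrix ATH1 arrays: wt cells, and 2 transformed lines in which estrogen switches on VND6, a NAC transcription factor of vessel differentiation, or SND1, a NAC factor of fibre wall formation. All 3 kinds were given 2 µM estrogen and sampled at 0 h and 12 h, giving 6 groups of 3 arrays, or 18 arrays. Cells kept for 12 h in the absence of estrogen are not among the groups, so estrogen and time in culture cannot be told apart. The labels do not say whether a line was 1 clone. The transcripts of VND6 and of SND1 themselves were not analysed here.

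Starch is the plant's storage glucan, and alpha-amylases cut it inside the chain, while beta-amylases, debranching enzymes and dikinases act on its ends, branches and phosphate groups. In cereals such as rice, alpha-amylase genes are known to be switched on when cultured cells run short of sugar. AMY1 is the secreted alpha-amylase of Arabidopsis, whereas AMY3 works in the plastid. SFP1 belongs to the largest group of monosaccharide transporters in Arabidopsis, named after the drought gene ERD6, and its transcript is known to rise during leaf senescence while that of its tandem neighbour SFP2 does not.

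The arrays differed little in overall signal, with a median per array of 103 to 133. Over the 15715 probe sets tested, Spearman's rho was 0.984 to 0.991 between replicates 2 and 3 of a group and 0.872 to 0.958 between replicate 1 and either of them. The labels leave unsaid whether replicates were separate cultures. The p-values therefore reflect spread among these arrays alone, which may be technical, and the number of arrays limits the precision. Of the cell type markers, 0 of 5 xylem genes, 1 of 5 photosynthetic genes and 1 of 3 genes of dividing cells were analysed here. RCA, the Rubisco activase of photosynthetic cells, fell from 0 h to 12 h in all 3 lines (log2 changes of -3.63 to -4.44), and PRL, the MCM7 subunit of the replicative helicase in dividing cells, rose in all 3 (1.05 to 3.74). At 0 h, PRL was higher than in wt cells in SND1 (log2 difference 1.79, limma adjusted p = 0.00504) and VND6 cells (1.46, adjusted p = 0.00792), while RCA lay at -0.60 and -0.65 and did not pass. The part of either in the AMY1 and SFP1 values was not tested. In total RNA of a culture, fewer cells of a type and less RNA per cell cannot be told apart.

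At 0 h AMY1 was brighter in wt cells than in either transformed line. Its signal in wt cells was 1082, 1195 and 979 in replicates 1, 2 and 3. In SND1 cells it was 266, 121 and 82.6, and in VND6 cells 62.4, 123 and 103. No array of either line reached a wt array, and the lines overlapped each other. The group means were 1086 ± 108 in wt, 156 ± 96.5 in SND1 and 96.1 ± 31.0 in VND6 cells (SD, n = 3). The difference of SND1 from wt is what AMY1 was chosen on, and the VND6 comparison shares the wt arrays, so both are given without a test; on the log2 scale they lay -2.92 and -3.49 from wt.

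At 12 h the order of the lines had changed. Its signal was 34.3, 31.4 and 12.3 in wt cells, 10.8, 33.6 and 16.1 in VND6 cells, and 51.9, 101 and 104 in SND1 cells. The lowest SND1 array lay above the highest array of wt and of VND6 cells, which overlapped each other. All wt and VND6 arrays at 12 h, and the SND1 array at 51.9, lay below the 40th percentile of their array. AMY1 kept 2.39% of its 0 h mean in wt cells, 21.0% in VND6 cells and 54.6% in SND1 cells.

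**Figure D1:**
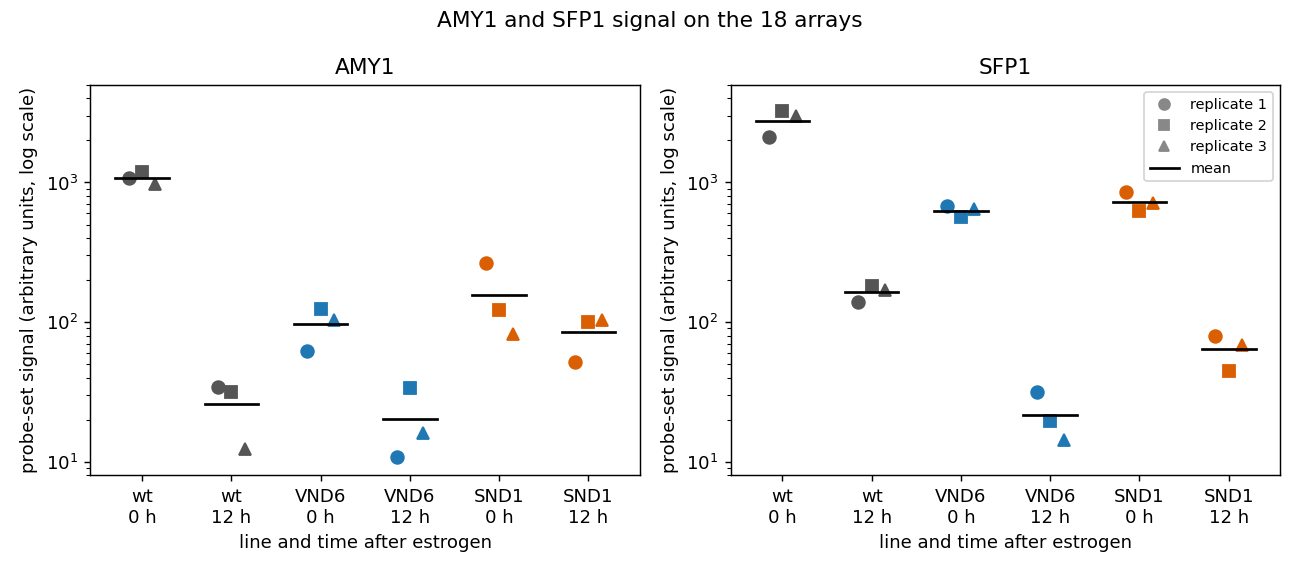
Probe-set signal (log axis, arbitrary units) of AMY1 and SFP1 on each of the 18 arrays, by line and time after estrogen; symbols mark the replicate and bars the mean of 3 arrays. AMY1 at 12 h is highest in SND1 cells (51.9 to 104), whereas SFP1 at 12 h runs from wt (140 to 181) through SND1 (44.8 to 80.1) to VND6 cells (14.3 to 31.4) without overlap.

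SFP1 was also brightest in wt cells at 0 h, at 2107, 3234 and 2999 in replicates 1, 2 and 3. It was 854, 627 and 710 in SND1 cells and 678, 562 and 643 in VND6 cells. Both lines lay below every wt array and overlapped each other, with log2 differences from wt of -1.91 in SND1 and -2.12 in VND6 cells, given without a test for the same reasons.

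At 12 h SFP1 was 140, 181 and 170 in wt cells, 80.1, 44.8 and 68.4 in SND1 cells, and 31.4, 19.5 and 14.3 in VND6 cells. These groups did not overlap, and each line lay below all of its own arrays at 0 h. All VND6 arrays at 12 h, and the SND1 array at 44.8, lay below the 40th percentile of their array. SFP1 kept 5.88% of its 0 h mean in wt cells, 8.82% in SND1 cells and 3.46% in VND6 cells. The SFP1 order over all 6 groups was wt, SND1 and VND6 at 0 h, then wt, SND1 and VND6 at 12 h, with overlap only between the SND1 and VND6 arrays at 0 h. The AMY1 order was wt, SND1 and VND6 at 0 h, then SND1, wt and VND6 at 12 h. There SND1 at 0 h, VND6 at 0 h and SND1 at 12 h all overlapped each other, and wt at 12 h overlapped VND6 at 12 h.

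The changes over time in wt and SND1 cells start from the arrays used to choose the genes, so they are described and not tested. On the log2 scale AMY1 changed by -5.26 in wt cells and by -0.74 in SND1 cells. In wt cells the 3 same-numbered differences were -4.82, -5.07 and -5.89. In SND1 cells they were -2.26, -0.26 and 0.31, so AMY1 was lower at 12 h in replicates 1 and 2 and not in replicate 3, and the SND1 arrays at the 2 times overlapped. Replicate 1 at 0 h, at 266, was the highest SND1 array, and with replicates 2 and 3 only the SND1 change was 0.03. SFP1 changed by -4.04 in wt cells and by -3.44 in SND1 cells, with same-numbered differences of -3.30 to -3.68 in the latter. The difference between the lines in these changes was not tested.

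The VND6 arrays compared over time were not used to choose the genes. The arrays that were used for that choice still entered the estimate of spread. AMY1 fell by 2.09 on the log2 scale (SE 0.46, limma adjusted p = 0.00117), 4.27-fold (95% interval 2.17 to 8.39), and was lower in 3 of 3 same-numbered pairs. SFP1 fell by 4.65 (SE 0.27, adjusted p = 1.9e-09), 25.1-fold (17.0 to 37.1), also in 3 of 3 pairs. Calls of any size were common: 53.5% of all tested probe sets were called in this comparison, 28.8% as higher and 24.7% as lower. That 2 of 2 genes passed therefore says little about these genes. By size, the SFP1 fall ranked 166th and the AMY1 fall 1406th among the 15715 tested probe sets. AMY1 went from a mean signal of 96.1 to 20.2 ± 11.9 in these cells and SFP1 from 628 to 21.7 ± 8.75 (SD, n = 3). Both ended below the 40th percentile on all 3 arrays, so the size of each fall depends on the constant added to the signal: for SFP1 it was -4.93 with none and -4.07 with a constant 4 times larger.

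At 12 h the 2 genes differed between the lines in different ways. AMY1 was higher in SND1 than in wt cells by 1.60 on the log2 scale (SE 0.46, limma adjusted p = 0.0317), 3.03-fold (95% interval 1.54 to 5.96), in 3 of 3 same-numbered pairs. In this comparison 12.8% of probe sets were called, 8.91% as higher and 3.86% as lower. AMY1 was lower in VND6 than in SND1 cells, at -1.92 (SE 0.46, adjusted p = 0.0313), 3.79-fold (1.93 to 7.45), where 2.81% were called, 1.04% as higher and 1.78% as lower. Between VND6 and wt cells AMY1 differed by -0.32 (SE 0.46, adjusted p = 0.642), with a 95% interval of -1.30 to 0.65 that leaves room for a difference either way, and the sign turned to 0.19 with replicates 2 and 3 only. The higher AMY1 level in SND1 than in wt cells was lost without wt replicate 2 (adjusted p = 0.0552), wt replicate 3 (0.159), SND1 replicate 2 (0.114) or SND1 replicate 3 (0.117) and when the mean of replicates 2 and 3 stood for both (0.383). The lower level in VND6 than in SND1 cells was lost without VND6 replicate 1 (0.0856), VND6 replicate 3 (0.121), SND1 replicate 2 (0.145) or SND1 replicate 3 (0.152), after quantile normalization (0.0613), in a fit of the compared arrays alone (0.079) and with the mean of replicates 2 and 3 in place of both (0.432), while the value stayed between -2.29 and -1.46 in all 16 settings tried.

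SFP1 was lower in both transformed lines than in wt cells at 12 h. In VND6 cells its log2 difference from wt was -2.73 (SE 0.27, limma adjusted p = 2.78e-06), 6.65-fold (95% interval 4.50 to 9.83), in a comparison where 27.1% of probe sets were called, 11% as higher and 16% as lower. In SND1 cells the difference from wt was -1.32 (SE 0.27, adjusted p = 0.00357), 2.49-fold (1.68 to 3.68), and that of VND6 from SND1 cells was -1.42 (SE 0.27, adjusted p = 0.0057), 2.67-fold (1.81 to 3.95). The SND1 difference from wt held in 3 of 3 same-numbered pairs. Replicate numbers were not taken to pair the VND6 arrays with those of wt or SND1 cells, but the groups compared did not overlap. The VND6 difference from wt passed in all 16 settings tried, but with these dim VND6 arrays its size ran from -2.98 with no added constant to -2.23 with a larger one. With the mean of replicates 2 and 3 in place of both, the SND1 difference from wt (adjusted p = 0.195) and the VND6 difference from SND1 (0.316) did not pass, nor did the latter with only the arrays compared (0.126).

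**Figure D2:**
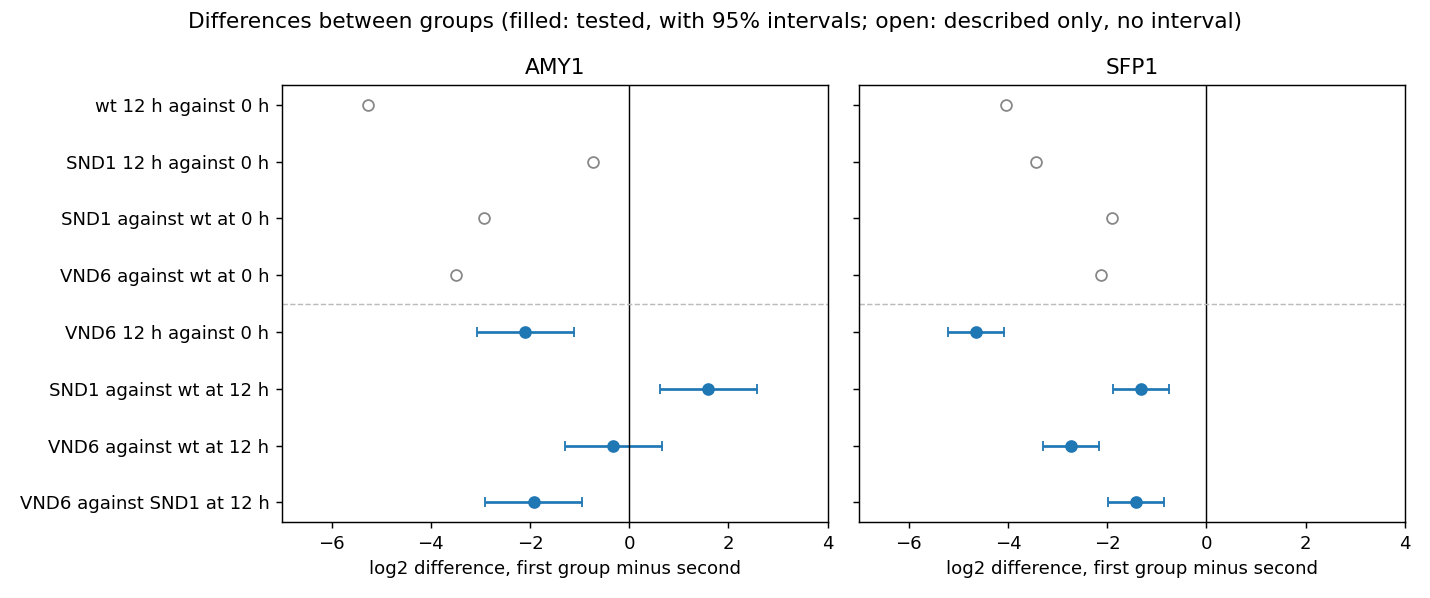
Log2 differences between groups for AMY1 and SFP1, first group minus second. Filled points are tests between groups whose arrays were not used to choose the genes, with 95% intervals. The spread behind these tests and intervals was estimated over all arrays, those used to choose the genes included. Open points are described without a test. In the comparison of SND1 with wt at 12 h AMY1 lies above 0 (1.60) and SFP1 below it (-1.32).

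AMY1 and SFP1 were also set against each other array by array. Pearson's r between their log2 values was 0.81 over the 18 arrays and Spearman's rho 0.75. It was 0.95 over the 9 arrays at 0 h, which include those that both genes were chosen on for the same difference, so nothing is read from it. Over the 9 arrays at 12 h it was 0.08. These values describe arrays that fall into 6 groups and share lines, times and replicate numbers.

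**Figure D3:**
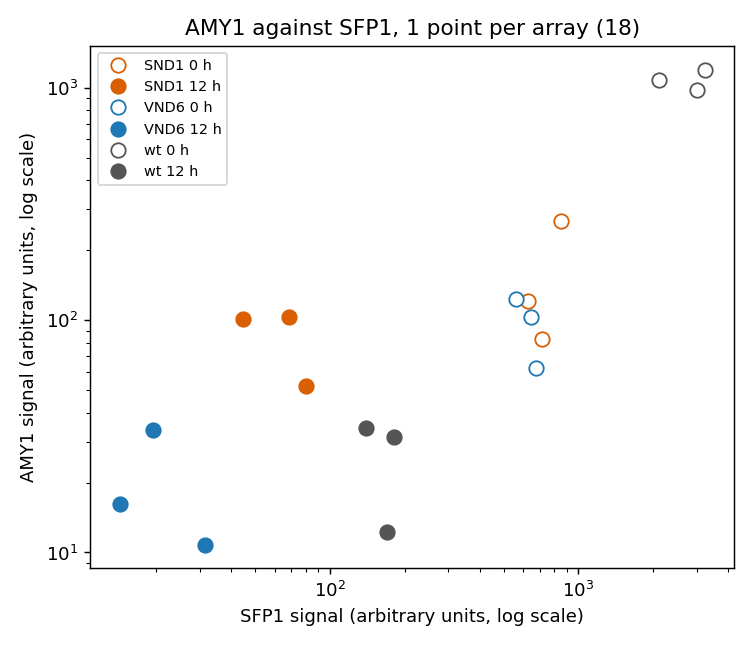
AMY1 signal against SFP1 signal on log axes, 1 point for each of the 18 arrays, coloured by line, open at 0 h and filled at 12 h. At 0 h both signals are highest in wt cells; at 12 h the SND1 arrays (AMY1 51.9 to 104) lie above the wt and VND6 arrays, while wt cells have the highest SFP1.

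SFP1 had many close matches among the other genes and AMY1 few. AMY1 reached the 40th percentile on 11 of the 18 arrays and SFP1 on 14, and the part of dim signals in this was not tested. Among 8737 other named genes, those most like AMY1 over the 18 arrays were AT3G26100 (Pearson's r = 0.91), RD2 (0.91), AT4G05160 (0.90), AT5G35180 (0.90) and AT5G49710 (0.90), and 3 genes in all exceeded 0.9. For SFP1, 400 genes did, led by AT1G09740 (0.98), AT2G20920 (0.98), AT3G47000 (0.98), AT3G30390 (0.98) and AT1G69480 (0.97). SFP1 ranked 76th among the genes most like AMY1, and AMY1 ranked 1017th among those most like SFP1. Both ranks take in the arrays at 0 h that AMY1 and SFP1 were chosen on. These genes were picked for likeness over the same arrays, so their levels are a description. The mean signal of AT3G26100 went from 3388 at 0 h to 178 at 12 h in wt cells. In SND1 cells it went from 1313 to 413. In VND6 cells at 12 h it was 262, above wt. There the AMY1 mean was below wt, but on dim arrays that overlapped, and the difference did not pass (limma adjusted p = 0.642). AT1G09740 had means at 12 h of 503 in wt, 282 in SND1 and 180 in VND6 cells.

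**Figure D4:**
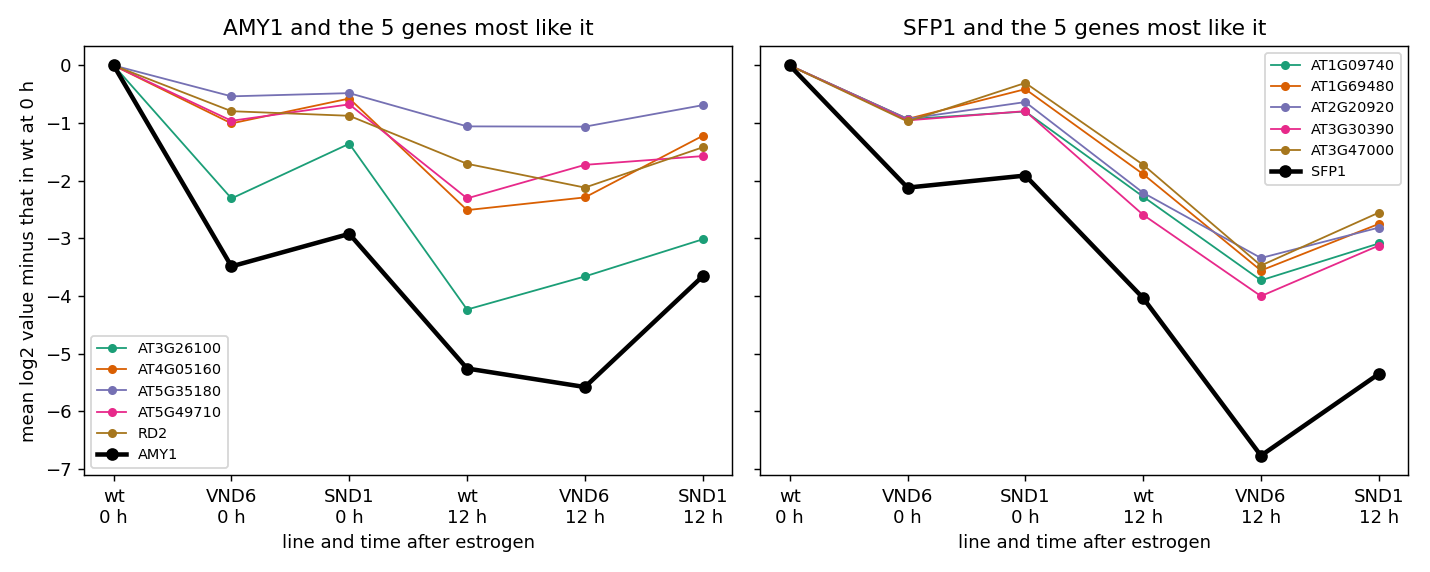
Mean log2 value of each group minus that in wt cells at 0 h, for AMY1 and SFP1 (black) and the 5 genes most like each over 18 arrays (coloured). All 5 genes matched to SFP1 are lowest in VND6 cells at 12 h, whereas the AMY1 panel rises again from wt and VND6 to SND1 cells at 12 h; SFP1 and AMY1 move further than the genes matched to them.

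Of the chromosomal neighbours, 2 were too dim to test. SFP2 (AT5G27360), the tandem neighbour and close relative of SFP1, stayed between 16.5 and 52.1 on all 18 arrays. It reached the filter level, the 40th percentile of its array, on 1 array and was not tested, whereas SFP1 reached it on 14. On the other side AT5G27340 did not pass in any of the 8 comparisons (its lowest limma adjusted p was 0.0501, for a change of 1.31 in VND6 cells over time). Beside AMY1, SWEET14, a sugar transporter gene of the SWEET family, reached the filter level on 0 arrays (its highest signal was 45.1). ATGP4 (AT4G24990), on the other side of AMY1, lay at a mean of 3316 in wt, 2415 in VND6 and 2532 in SND1 cells at 0 h, and its log2 differences from wt there, -0.42 and -0.37, did not pass (limma adjusted p = 0.327 and 0.564). It changed by -1.72 in wt cells (adjusted p = 3.2e-05), -0.85 in VND6 cells (adjusted p = 0.0104, lost without VND6 replicate 1 at 12 h, 0.057, and with replicates 2 and 3 averaged, 0.054) and -0.79 in SND1 cells (adjusted p = 0.0175, lost without SND1 replicate 2 at 0 h, 0.08, or replicate 1 at 12 h, 0.106, and with replicates 2 and 3 averaged, 0.078). AMY2, AMY3 and ERD6 were not analysed here.

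Other genes were taken from 8 lists with 165 genes, of which 26 were tested besides AMY1 and SFP1. The lists cover starch and sugar use, except 1 of leaf senescence (9 genes, 2 tested), which the counts include. SAG101, of the senescence list, is among the genes counted as higher in VND6 cells over time and against wt at 12 h. In SND1 against wt cells at 0 h, the comparison that AMY1 and SFP1 were chosen on, 0 of these 26 passed in limma, where 2.34% of all probe sets did, 1.88% as higher and 0.465% as lower; 6 had an unadjusted p under 0.05, the lowest adjusted p was 0.0534, and their log2 differences ran from -1.64 to 1.62 with a median of -0.11 against 0.11 over all probe sets. When replicate 1 was left out of every group, 8 passed. In VND6 against wt cells at 0 h, 4 were lower and 0 higher (8.51% of all probe sets called, 4.8% as higher and 3.72% as lower), led by SWEET2, a sugar transporter of the vacuole, at -2.88 (limma adjusted p = 0.00197). That count of 4 was 2 without VND6 replicate 2, ran from 2 to 6 over all single arrays left out, and from 0 to 14 over all settings.

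Over 12 h some of the 26 list genes rose and others fell, in shares near those of all probe sets. In VND6 cells 6 rose, 6 fell and 14 did not pass, where 53.5% of all probe sets were called, 28.8% as higher and 24.7% as lower; the median log2 change was 0.29 against 0.08 over all probe sets. In wt cells 7 rose and 8 fell, with a median of -0.18 against 0.20 (54.1% of all probe sets called, 32.1% as higher and 22% as lower), and in SND1 cells 6 rose and 5 fell, with a median of 0.25 against 0.08 (50.6% called, 27.8% as higher and 22.8% as lower). Of the 6 other ERD6-like genes tested, 3 rose and 2 fell in VND6 cells, which beside 53.5% called of all probe sets is not read as a trait of the family. AT1G19450 rose there by 2.55 and AT3G20460 by 2.79, while AT3G05150 changed by -2.40 and AT3G05400 by -2.17, against -4.65 for SFP1. Among starch genes, PWD, a dikinase that phosphorylates starch, changed by -0.45 in VND6 cells and did not pass, nor did AT4G24450 (-2.31), also of the starch breakdown list. For starch synthesis, neither APL3, a subunit of the enzyme that makes ADP-glucose (0.26), nor SBE2.2, a starch branching enzyme (0.63), passed there. Both tested genes of the sucrose cleavage list fell in VND6 cells. The log2 change was -3.33 for cwINV6, named for the cell wall invertase family (-3.94 without VND6 replicate 1 at 0 h), and -2.70 for AT1G62660.

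At 12 h, 4 of the 26 were higher and 1 lower in SND1 than in wt cells, where 12.8% of all probe sets were called. In VND6 against wt cells 7 were higher and 4 lower (27.1% of all called), and in VND6 against SND1 cells 1 was higher and 1 lower (2.81% of all called). Over the settings tried these totals of 5, 11 and 2 ran from 2 to 15, from 2 to 17 and from 0 to 10. The total of 2 became 0 or 1 without any single array but VND6 replicate 1. AT1G62660, of the sucrose cleavage list, had its lowest level in wt cells at 12 h. Its mean went from 9572 to 107 in wt, from 5097 to 1021 in SND1 and from 3293 to 527 in VND6 cells, and at 12 h it lay above wt by 3.23 in SND1 (SE 0.35, limma adjusted p = 1.26e-05) and by 2.25 in VND6 cells. SWEET16, a sugar transporter of the vacuole membrane, likewise stood above wt at 12 h, by 3.01 in SND1 and 3.65 in VND6 cells, where AMY1 stood at 1.60 and -0.32. The wt arrays at 12 h ran from 8.21 to 83.1 for SWEET16, and without wt replicate 2 the differences were 2.203 and 2.84, and without wt replicate 1 they were 3.60 and 4.24. SAG29, the gene of the transporter SWEET15, was lower than in wt cells, at -2.10 in SND1 and -2.54 in VND6 cells. AT3G05400, an ERD6-like gene, was lower than wt in VND6 cells, at -2.34, as SFP1 was. APL3 was also lower there, at -2.59. These comparisons share the wt arrays at 12 h. In the fit on the mean of replicates 2 and 3, the SAG29 difference in SND1 cells (adjusted p = 0.183), and in VND6 cells those of SAG29 (0.061), AT1G62660 (0.061) and APL3 (0.09), did not pass.

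**Figure D5:**
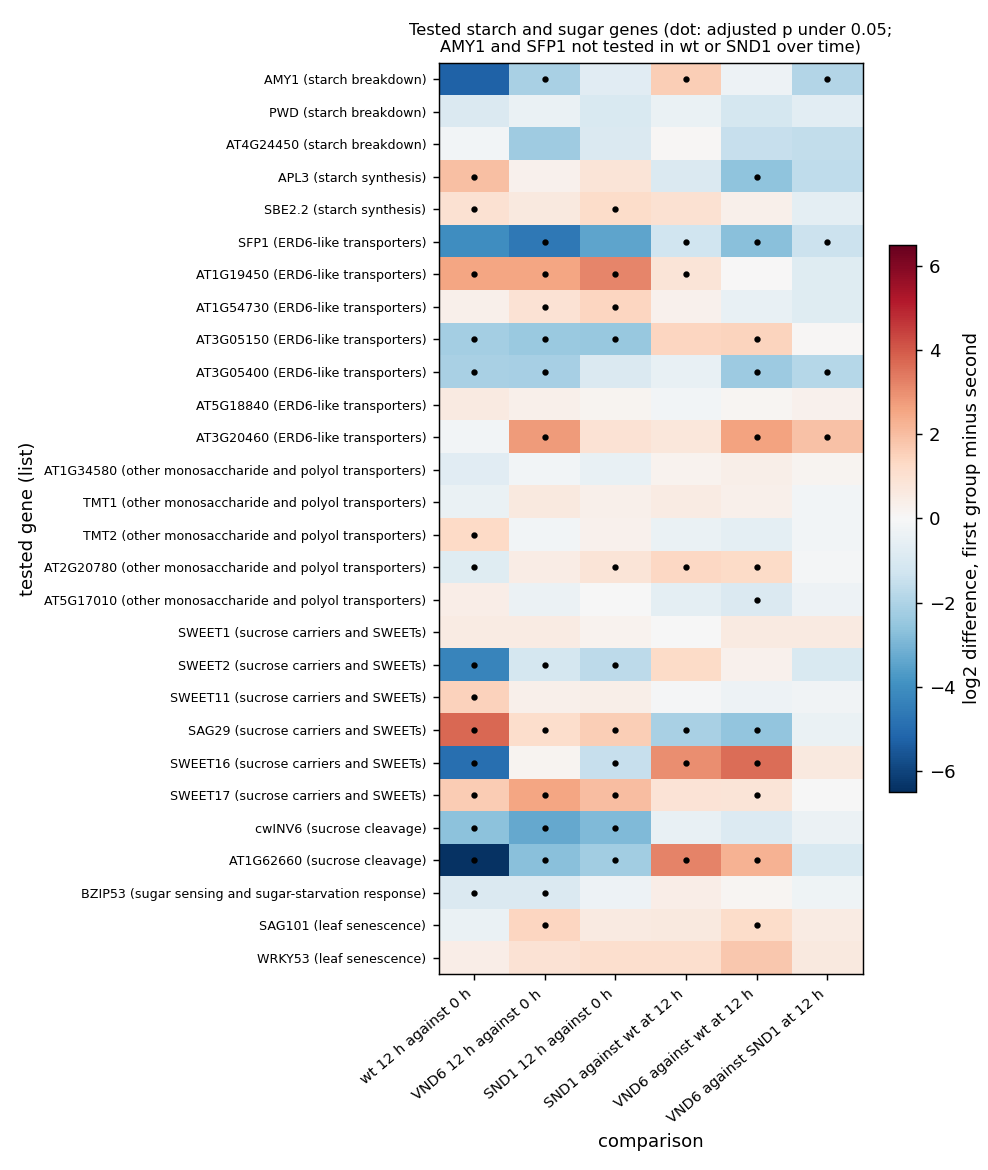
Log2 differences (colour, first group minus second) in 6 comparisons of the 28 tested genes on the 8 lists, AMY1 and SFP1 included. The lists are of starch and sugar use, except 1 of leaf senescence. A dot marks a limma adjusted p under 0.05, and AMY1 and SFP1 carry no test over time in wt or SND1 cells. SFP1 is lower in all 6 columns, while AMY1, AT1G62660 and SWEET16 are all higher in SND1 than in wt cells at 12 h (1.60, 3.23 and 3.01).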

How the data were processed

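The deposited table holds the authors' linear signal intensity for each probe set. The submitters' processing notes name GCOS; its version, algorithm and detection calls were not given in the sources used here. Per the labels' protocols, 2 labelling kits were used, with no kit tied to an array. The 2% trimmed mean was 500.045 to 500.058 on every array, so scaling by the authors to a common level was assumed. Values were used as log2(signal + 4.32), 4.32 being the table's 10th percentile, so folds of dim genes are understated. After removal of 64 control probe sets, those that reached the 40th percentile of their array on at least 3 arrays were tested (15715 of 22810). Of all, 13513 had 1 gene in the annotation, 503 several and 8730 none named here; RefSeq (assembly TAIR10.1) gave names and neighbours only. The brightest probe set stood for a gene that had more than 1.

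A group-means model over 18 arrays was run in limma 3.58.1 under R 4.3.3 (lmFit and trended eBayes); p-values are 2-sided, adjusted by Benjamini-Hochberg over all tested probe sets, with calls under 0.05. AMY1 and SFP1 were tested only in comparisons without the wt and SND1 arrays at 0 h. Those arrays still entered the estimate of spread, which was made over all 18 arrays. Group-centred values also correlated between same-numbered arrays at 0 h and 12 h in wt (0.255 to 0.380) and SND1 cells (0.188 to 0.326). The tests at 12 h are therefore not wholly independent of the choice of genes. The members, lists and tests were chosen with earlier results of these data known. Named genes were AMY1, SFP1, AMY2, AMY3, SFP2, ERD6 and the chromosomal neighbours; of each list up to 4 tested genes with the smallest adjusted p in VND6 cells over time and up to 2 in the comparisons of lines at 12 h, where they passed; and the 5 genes most like each member by Pearson's r. PWD, AT4G24450 and SBE2.2 were named after their values were seen. As a check of pairing, group-centred values of same-numbered arrays correlated at over 0.1 in every pair for VND6 over time (0.205 to 0.308) and SND1 against wt at 12 h (0.228 to 0.451), so numbers were taken to pair them; for VND6 against wt (0.0918 to 0.172) and against SND1 at 12 h (0.0384 to 0.141) they were not. In simulated data for VND6 over time on 15715 probe sets, 50 of each size were changed on the log2 scale. Of these, 28% of rises of 1, 70% of rises of 2, 94% of rises of 3 and 74% of changes of -2 were recovered. Far fewer probe sets changed there than the 53.5% called in the data, and the simulated noise was independent between arrays. The shares therefore do not give the power of the test on the data. Alternatives were another normalization, filters, pseudocounts, no trend, fewer arrays, a replicate block and left-out arrays.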

Additional observations from a re-analysis of the deposited data

Results flagged for a closer look

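The change from 0 h to 12 h was compared between lines by limma's test of the difference itself, for 30 genes of the lists and the chromosomal neighbours. Against wt cells, 8 passed for VND6 cells, where 13.8% of all probe sets did, and 5 for SND1 cells, where 5.87% did. Both sets of values share the wt arrays, and these tests were not repeated with arrays left out. Between VND6 and SND1 cells 0 of 30 passed in limma (3 had an unadjusted p under 0.05, the lowest adjusted p was 0.319), where 0.745% of all probe sets did. AMY1 and SFP1 were not tested in this way, since the wt and SND1 arrays at 0 h were used to choose them.

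The response of VND6 cells minus that of wt cells was 5.05 on the log2 scale for SWEET16 (SE 0.69, adjusted p = 0.000243) and 3.73 for AT1G62660 (SE 0.49, adjusted p = 0.000169). It was 3.16 for SWEET2, 2.98 for the ERD6-like gene AT3G20460 and 1.25 for AT2G20780, a gene on the list of other monosaccharide and polyol transporters. It was -2.56 for SAG29, -1.72 for PRL and -1.47 for TMT2, of the same list as AT2G20780 and named after its value was seen.

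The response of SND1 cells minus that of wt cells was 4.15 for AT1G62660 (SE 0.49, adjusted p = 0.000118) and 3.38 for SWEET16 (SE 0.69, adjusted p = 0.00878). It was 2.60 for SWEET2, 1.64 for AT2G20780 and -2.69 for PRL.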

How the results depend on the processing

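The fall of AMY1 and SFP1 in VND6 cells and the lower SFP1 in VND6 than in wt cells at 12 h passed in all 16 settings tried. With replicates 2 and 3 averaged, the 12 h differences that no longer passed were AMY1 and SFP1 in SND1 against wt cells (1.34 and -1.18) and in VND6 against SND1 cells (-1.91 and -1.37). With only the arrays compared, AMY1 (-1.92) and SFP1 (-1.42) in VND6 against SND1 cells did not pass, nor did AMY1 there after quantile normalization (-1.79). With replicates 2 and 3 only, AMY1 changed sign in VND6 against wt cells at 12 h (0.19) and in SND1 cells over time (0.028). Leaving out 1 array at a time gave AMY1 values of 1.21 to 1.91 in SND1 against wt cells and of -2.29 to -1.63 in VND6 against SND1 cells at 12 h. The cause was not tested.

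Counts of called probe sets moved more. With replicates 2 and 3 averaged they were 5238 for VND6 (8400 as reported) and 4955 for SND1 cells over time (7951), 283, 583 and 58 for SND1 against wt, VND6 against wt and VND6 against SND1 cells at 12 h (2006, 4253 and 442), and 0 in limma for SND1 and for VND6 against wt at 0 h (368 and 1338), where 931 and 1535 had an unadjusted p under 0.05. Using replicates 2 and 3 only, the same 3 comparisons at 12 h gave 7328, 9614 and 4634, and the 2 at 0 h gave 4510 and 7541. With only the arrays compared, SND1 against wt gave 3457 at 12 h and 1 at 0 h, and VND6 against wt gave 45 at 0 h. Without 1 array, the 3 comparisons at 12 h ranged from 1078 to 2385, 2433 to 5253 and 235 to 651, and those at 0 h from 102 to 846 and from 540 to 2939.

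With the replicate block, SND1 against wt at 0 h gave 583 calls, and AMY1 in SND1 against wt cells at 12 h stayed at 1.60 (adjusted p = 0.0249); the block changed no call of AMY1 or SFP1. Of 935 comparisons of named list genes and neighbours with their reported values, 851 kept the call, 84 lost it and 0 changed sign. Dim signals limit AMY1 most: it reached the 40th percentile on 11 of 18 arrays.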
